A study of Mus musculus with 4 samples.

Results

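Assays that sort cells by S phase stage and pull down newly made DNA are checked at a few loci whose replication time is well known. The 7 such loci described here are Bmp1, Mmp15, Hba-a1, Dppa2, Hbb-b1, Zfp42 and Ptn. Each was taken as a fixed position on mouse build mm9, with every array probe whose midpoint lay within 100 kb of it. The rule uses positions and no measured value, although the loci were picked with earlier results of these data known. The 7 regions held 118 usable probes of 169660 on the array, and they are set against 12000 windows of 200 kb that tile the genome.

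Mouse embryonic fibroblasts were profiled for replication timing on 4 arrays of 2 colours, 1 per group. New DNA was marked with the thymidine analogue BrdU (50 µM, 1 hour), 80000 cells were sorted by DNA content into early and late S phase, and the marked DNA of each was pulled down, amplified and hybridised, early in Cy3 and late in Cy5. The KO array carries the label of a deleted floxed allele of SUV4-20H1, the gene of an enzyme that methylates histone H4 at lysine 20, and it was paired with a control array. The induced array of a suv4-20h mutant was paired with a non-induced array of that mutant. Per the labels' protocols, 4-hydroxytamoxifen (1 mM, 24 hours) served to delete the floxed allele. The labels list it for all 4 arrays, control and non-induced included, so they do not tell which cells received it. How induction was done, and which other Suv4-20h alleles any group carried, is not given there. The labels give the cell line number as 362.2 in one field and 364.2 in another. The targeted gene was not analysed here.

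DNA is copied in large domains, each of which fires within a characteristic part of S phase. Early domains are usually rich in genes and transcription, and late domains are usually poor in both and lie near the nuclear lamina. Bmp1, the procollagen C-proteinase, and Mmp15, a membrane-type matrix metalloproteinase, lie in gene-rich surroundings. The alpha-globin gene Hba-a1 lies among housekeeping genes and replicates early in most cell types, whereas the beta-globin gene Hbb-b1 replicates late outside the erythroid lineage. Dppa2 and Zfp42 (Rex1) are genes of pluripotent cells that replicate early in embryonic stem cells and late after differentiation. Ptn encodes pleiotrophin, a heparin-binding growth factor. It was grouped with the late loci from outside these files, and that grouping was not checked for fibroblasts. The labels themselves name Bmp1 as the early and Dppa2 as the late control of the study's quantitative PCR.

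In mm9 the regions were chr14:70800000-71000000 (Bmp1, 19 probes), chr8:97780000-97980000 (Mmp15, 15 probes), chr11:32080000-32280000 (Hba-a1, 21 probes), chr16:48210000-48410000 (Dppa2, 15 probes), chr7:110860000-111060000 (Hbb-b1, 20 probes), chr8:44280000-44480000 (Zfp42, 11 probes) and chr6:36600000-36800000 (Ptn, 17 probes). An annotation of mm9 was not used here, so probes were not assigned to exons or introns. RefSeq genes of build GRCm38.p6 gave the order of neighbours. Bmp1 stands between Phyhip and Sftpc, which encodes surfactant protein C. Mmp15 stands between Usb1 and Cfap20. Hba-a1 lies in its globin cluster beside Hba-x and Hbq1b, with Nprl3 and Mpg further out. Dppa2 neighbours its paralogue Dppa4 and the germ cell gene Morc1, and Zfp42 lies between Triml2 and the Adam26b gene. Ptn lies between the muscarinic receptor gene Chrm2 and the diacylglycerol kinase gene Dgki. The Hbb cluster (Hbb-bt, Hbb-bs) is flanked by the olfactory receptor gene Olfr67. The globin genes have near-identical copies in their clusters, and cross-hybridisation of single probes was not tested.

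RefSeq's GRCm38.p6 promoter table held 4 of the 7 genes, Mmp15, Hba-a1, Zfp42 and Ptn. The 250 bases before the start are shown for 1 early locus, 1 late locus and Ptn, at chr8:95352046-95352295 (plus strand), chr8:43307010-43307259 (minus strand) and chr6:36810180-36810429 (minus strand). Capitals mark the dinucleotide CG, which reads the same on both strands.
Mmp15: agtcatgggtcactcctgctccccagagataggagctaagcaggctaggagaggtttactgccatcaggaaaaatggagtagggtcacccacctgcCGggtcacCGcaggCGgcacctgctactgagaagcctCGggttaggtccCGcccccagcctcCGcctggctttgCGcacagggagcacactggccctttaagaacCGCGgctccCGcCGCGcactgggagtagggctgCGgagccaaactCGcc
Zfp42: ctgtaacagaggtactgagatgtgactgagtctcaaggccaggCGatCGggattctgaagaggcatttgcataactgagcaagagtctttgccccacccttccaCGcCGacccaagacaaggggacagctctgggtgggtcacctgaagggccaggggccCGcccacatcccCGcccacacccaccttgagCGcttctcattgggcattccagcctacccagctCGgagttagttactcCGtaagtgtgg
Ptn: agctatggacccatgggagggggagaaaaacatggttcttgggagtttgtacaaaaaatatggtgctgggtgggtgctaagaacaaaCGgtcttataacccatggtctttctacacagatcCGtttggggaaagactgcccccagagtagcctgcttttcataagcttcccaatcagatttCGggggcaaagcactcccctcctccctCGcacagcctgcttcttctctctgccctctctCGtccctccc
The CG count was 14 at Mmp15, 9 at Zfp42, 5 at Ptn and 4 at Hba-a1, against a median of 6 over 32851 promoters. At least as many CG were held by 29.4% of promoters for Mmp15, 40.3% for Zfp42, 55.6% for Ptn and 62.2% for Hba-a1. Early Hba-a1 thus had fewer CG than late Zfp42 in this stretch, so the count did not sort the loci by timing.

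Timing is given as log2 of early over late signal, centred on the median of autosomal probes of each array, so that positive values are early. Errors are SD or SE over the probes of a region. With 1 array per group there is no replicate check, no test between groups was possible, and probe errors say nothing of how repeat cultures vary. The share of autosomal spots well above background was 89.1% to 94.9% per array. Each pair of arrays shared a slide. On the Y chromosome, 106 of 122 probes stood well above background in each channel in KO and 50 in control cells, and 41 in induced and 53 in non-induced cells. The KO array thus stood apart from its control in more than its genotype label, and the part of that in the KO differences below was not tested.

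The 3 early loci were early on every array, and 3 of the 4 late loci were late on every array. Bmp1 had a timing of 0.88 ± 0.47 in KO and 0.83 ± 0.44 in control cells, and 1.09 ± 0.55 in induced and 0.80 ± 0.49 in non-induced cells (SD over 19 probes). On each array 18 of its 19 probes lay above 0. Mmp15 had 0.81 ± 0.38 in KO and 0.71 ± 0.48 in control cells, and 1.01 ± 0.93 in induced and 1.09 ± 0.81 in non-induced cells (SD over 15 probes). Its probes spread more widely on the induced and non-induced arrays than on the other pair. Hba-a1 had 0.89 ± 0.59 in KO and 0.70 ± 0.49 in control cells, and 1.00 ± 0.64 in induced and 0.91 ± 0.58 in non-induced cells (SD over 21 probes). The means of the 3 early loci lay within 0.085 of each other in KO, 0.14 in control, 0.089 in induced and 0.28 in non-induced cells, less than the probe SD of any of them.

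Dppa2 had a timing of -1.05 ± 0.57 in KO and -0.36 ± 0.43 in control cells, and -1.18 ± 0.84 in induced and -0.77 ± 0.72 in non-induced cells (SD over 15 probes). At most 2 of its 15 probes lay above 0 on any array. Hbb-b1 had -1.33 ± 0.54 in KO and -0.35 ± 0.58 in control cells, and -1.46 ± 0.75 in induced and -0.93 ± 0.62 in non-induced cells (SD over 20 probes). No probe of the locus was above 0 in KO or induced cells, against 4 in control and 1 in non-induced cells. Zfp42 had -1.34 ± 0.38 in KO and -0.64 ± 0.23 in control cells, and -1.59 ± 0.65 in induced and -0.60 ± 0.49 in non-induced cells (SD over 11 probes). On all 4 arrays the mean of each of these 3 loci was below that of each early locus, with a gap between the classes of 1.86 in KO, 1.04 in control, 2.18 in induced and 1.40 in non-induced cells.

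Ptn did not follow the late class it had been given from outside these data. Its timing was -0.0024 ± 0.34 in KO and 0.62 ± 0.43 in control cells, and 0.95 ± 0.51 in induced and 0.75 ± 0.60 in non-induced cells (SD over 17 probes). In control cells 17 of 17 probes lay above 0, and in KO cells 8 did. On 3 of the 4 arrays Ptn therefore sat on the early side, and in KO cells it sat in the middle of the range. Ptn is described below by its values and not as a late control.

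**Figure D1:**
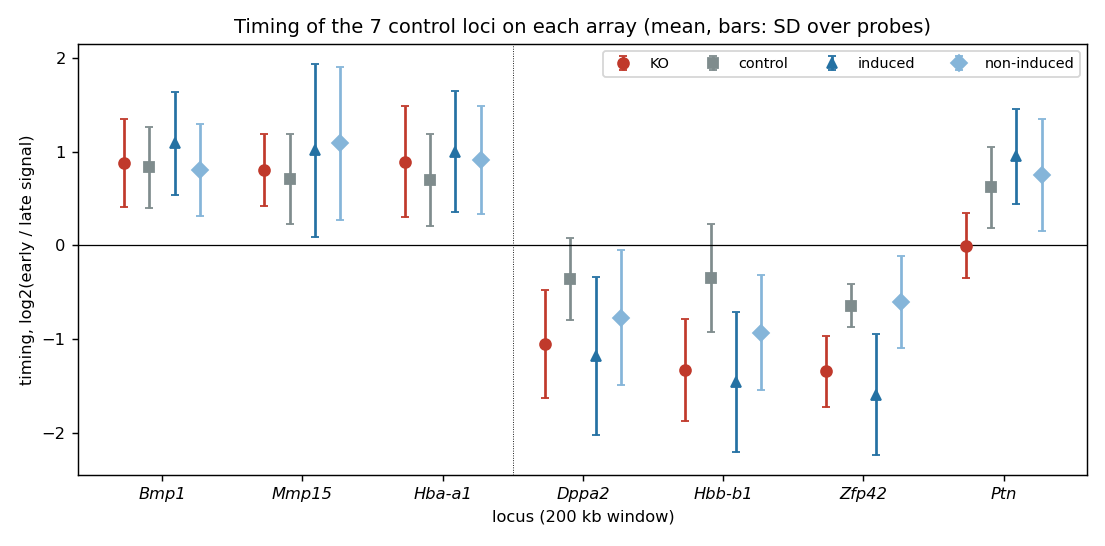
Timing of the 7 loci (x axis) on the KO, control, induced and non-induced arrays, as log2 of early over late signal (y axis), with points for the mean and bars for the SD over probes. The 3 loci left of the dotted line lie above 0 on all arrays, Dppa2, Hbb-b1 and Zfp42 lie below 0 on all arrays, and Ptn is near 0 in KO cells (-0.0024) and above 0 on the other arrays.

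Ranks among the 12000 windows do not depend on the centring or the spread of an array. Bmp1 exceeded 87.2% of windows in KO and 87.4% in control cells, and 89.9% in induced and 83.7% in non-induced cells. Mmp15 exceeded 83.2% in KO and 80.7% in control cells, and 85.8% in induced and 97.0% in non-induced cells. Hba-a1 exceeded 88.0% in KO and 80.1% in control cells, and 84.9% in induced and 89.2% in non-induced cells. Among the late loci, Hbb-b1 exceeded 12.5% of windows in KO and 41.8% in control cells, and 16.1% in induced and 20.8% in non-induced cells. Zfp42 exceeded 11.9% in KO and 27.3% in control cells, and 10.6% in induced and 36.0% in non-induced cells. Dppa2 exceeded 28.0% in KO and 41.2% in control cells, but 28.5% in both induced and non-induced cells. Ptn exceeded 57.4% in KO and 76.9% in control cells, and 82.4% in induced and 80.6% in non-induced cells. In control cells the late controls Dppa2 and Hbb-b1 were thus close to the middle of the genome rather than among its latest windows.

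**Figure D2:**
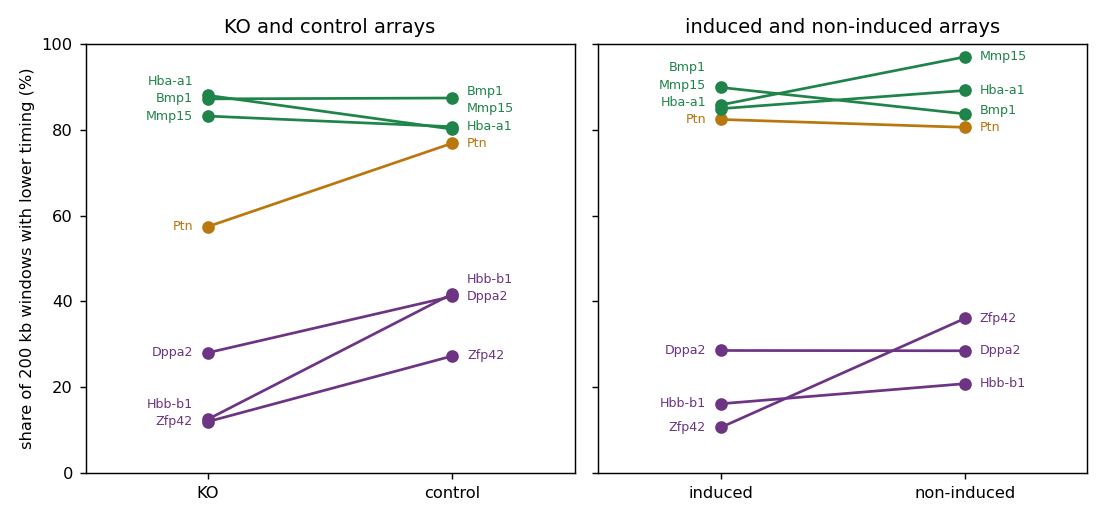
Share of 200 kb windows with a lower timing than each locus (y axis, percent) on the KO and control arrays (left) and on the induced and non-induced arrays (right), with 1 line per locus. Hbb-b1 exceeds 12.5% of windows in KO and 41.8% in control cells, whereas Dppa2 exceeds 28.5% on both the induced and the non-induced array.

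The first comparison of the study was KO against control cells. A region counted as later or earlier on both of these conditions: a size of at least 0.25 of the spread of windows on the control array (from the 10th percentile to the 90th), which came to 0.45, and a size of at least 3 SE over probes. By that rule 4 of the 7 loci were later in KO cells and none was earlier, against 22.2% of all windows later and 8.02% earlier. The 4 were Dppa2, Hbb-b1, Zfp42 and Ptn. The difference was -0.69 ± 0.11 at Dppa2, -0.98 ± 0.21 at Hbb-b1, -0.70 ± 0.13 at Zfp42 and -0.62 ± 0.11 at Ptn (KO minus control, SE over probes). The probes below 0 numbered 14 of 15, 19 of 20, 11 of 11 and 17 of 17 in the same order. The windows with a lower difference made up 14.4%, 6.58%, 14.2% and 17.4% of all windows, again in that order. At Hbb-b1 a single probe differed by -4.30, and the median over probes there was -0.74. The early loci differed by 0.05 ± 0.11 at Bmp1, 0.10 ± 0.11 at Mmp15 and 0.20 ± 0.08 at Hba-a1, under the threshold in size.

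The median of the window differences was -0.16 between KO and control cells. The median window stood at -0.39 in KO and -0.16 in control cells, and the spread of windows was 2.31 in KO and 1.81 in control cells. With arrays centred on the window median, the differences were -0.46 at Dppa2, -0.75 at Hbb-b1, -0.47 at Zfp42 and -0.39 at Ptn, and the call at Ptn was lost, while 1271 windows were later and 2148 earlier. With normexp background correction of the raw signals, Ptn alone was still called, at -0.56, and the others were at -0.37, -0.31 and -0.23 for Dppa2, Hbb-b1 and Zfp42. Zfp42 also lost its call with loess (-0.36), with a common spread for all arrays (-0.41) and with quantile normalization (-0.35), where Dppa2 lost it too (-0.45). Hbb-b1 lost it within 50 kb (-0.97, SE 0.43 over 9 probes).

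The second comparison was induced against non-induced cells, where the size threshold was 0.52. Hbb-b1 and Zfp42 were called later, none of the 7 was called earlier, and the background was 11.9% of windows later and 0.467% earlier. The difference was -0.53 ± 0.13 at Hbb-b1 and -0.99 ± 0.25 at Zfp42 (induced minus non-induced, SE over probes). Of all windows, 1.63% had a lower difference than Zfp42, and 18.1% a lower one than Hbb-b1. Dppa2 differed by -0.41 ± 0.23 and was not called, with 11 of 15 probes below 0. Bmp1 differed by 0.28 ± 0.08, Ptn by 0.20 ± 0.12, Hba-a1 by 0.09 ± 0.08 and Mmp15 by -0.07 ± 0.11. Bmp1 exceeded 3 SE but not the size threshold. Both calls were lost with arrays scaled to the same spread (-0.19 at Hbb-b1, -0.62 at Zfp42), with quantile normalization (-0.10 and -0.58), with normexp (-0.10 and -0.19) and with centring on the window median (-0.27 and -0.74). In all of these but normexp the value at Zfp42 was larger than 0.52 in size but under 3 SE, as was its value of -1.01 within 50 kb. Of the 14 alternatives run, the call held under 6 at Hbb-b1 and under 8 at Zfp42. Hbb-b1 also lost it with loess (-0.38) and with probes well above background on all arrays (-0.39). Within 250 kb Dppa2 was called later as well, at -0.67. The spread of windows was 2.70 in induced and 2.07 in non-induced cells.

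**Figure D3:**
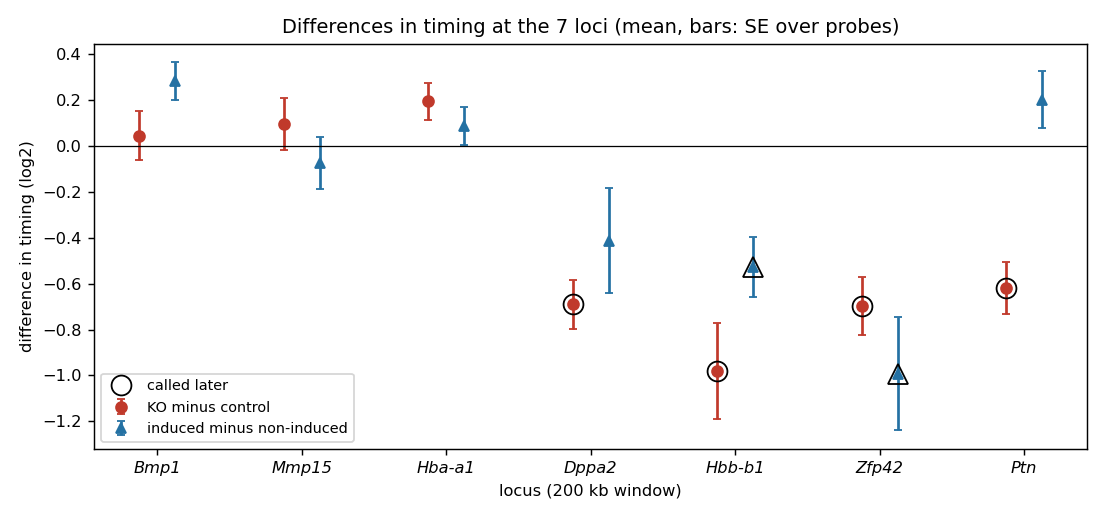
Difference in timing (y axis, log2) at the 7 loci (x axis) for KO minus control and induced minus non-induced, with bars for the SE over probes and an open black outline where a locus was called later. Dppa2, Hbb-b1, Zfp42 and Ptn are outlined for KO minus control, and Hbb-b1 and Zfp42 for induced minus non-induced.

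Non-induced and control cells, neither of them labelled as deleted, lay on different slides and differed too. Hbb-b1 was later in non-induced cells by the same rule, at -0.58 ± 0.18, and no other locus was called, against 10.8% of windows later and 8.17% earlier. The other differences ran between -0.41 ± 0.19 at Dppa2 and 0.38 ± 0.21 at Mmp15 (non-induced minus control). The Hbb-b1 call held under 5 of 14 alternatives and was lost under the rest, at -0.21 with normexp, -0.48 with loess, -0.47 with scaling to the same spread, -0.55 with quantile normalization, -0.48 with window-median centring, -0.63 within 50 kb, -0.43 within 250 kb and -0.53 as a median over probes, and with a threshold of 0.5 of the spread. The 5 include the deposited log ratios, the kept flagged spots and the size threshold alone, which left the value at -0.58. The comparison of non-induced with control cells shares the control array with that of KO cells.

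The distance between the study's own pair of controls was wider in KO than in control cells, and wider in induced than in non-induced cells. Bmp1 minus Dppa2 was 1.93 ± 0.18 in KO and 1.19 ± 0.15 in control cells, and 2.27 ± 0.25 in induced and 1.57 ± 0.22 in non-induced cells (SE over probes). As the early over late ratio of Bmp1 divided by that of Dppa2, these are 3.80-fold in KO and 2.28-fold in control cells. The values are 4.82-fold in induced and 2.98-fold in non-induced cells. Divided by the spread of windows on the same array, the log2 distances were 0.83 in KO and 0.66 in control cells, and 0.84 in induced and 0.76 in non-induced cells. The globin pair, Hba-a1 minus Hbb-b1, was 2.22 ± 0.18 in KO and 1.04 ± 0.17 in control cells, and 2.45 ± 0.22 in induced and 1.84 ± 0.19 in non-induced cells. On the scale of each array's spread the globin pair was 0.96 in KO and 0.57 in control cells, and 0.91 in induced and 0.89 in non-induced cells. Mmp15 minus Zfp42, 2 loci on chromosome 8, was 2.15 ± 0.15 in KO and 1.35 ± 0.14 in control cells, and 2.61 ± 0.31 in induced and 1.69 ± 0.26 in non-induced cells.

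The channels were also read one by one, each relative to its own autosomal median. At Dppa2 the early channel was lower in KO cells by -0.71 ± 0.13 while the late channel differed by -0.06 ± 0.08. At Hbb-b1 the early channel differed by -1.41 ± 0.14 and the late channel by -0.48 ± 0.15, and at Zfp42 by -0.97 ± 0.11 and -0.32 ± 0.11 (KO minus control, SE over probes). The late channel depended on what it was set against. Relative to the median of its own chromosome, a scale added after seeing the data, it was -0.28 in KO and 0.06 in control cells at Dppa2, -0.35 in KO and 0.14 in control cells at Hbb-b1, and -0.54 in KO and -0.55 in control cells at Zfp42. On that scale the early channel was -1.15 in KO and -0.32 in control cells at Dppa2, -1.67 in KO and -0.27 in control cells at Hbb-b1, and -1.79 in KO and -1.10 in control cells at Zfp42. The early channel was thus the lower in KO cells at all 3 loci on both scales, while the late channel at Dppa2 and Zfp42 differed between scales. Ptn had the opposite form, with 0.11 ± 0.11 in the early and 0.68 ± 0.11 in the late channel relative to the autosomal median. Relative to its own chromosome, its late channel was -0.00045 in KO and -0.58 in control cells. For induced minus non-induced cells, Zfp42 differed by -0.73 ± 0.15 in the early and 0.21 ± 0.15 in the late channel, and Hbb-b1 by -0.28 ± 0.11 and 0.19 ± 0.10.

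Dim early spots bound some of these values. At Zfp42 the early spots well above background numbered 8 of 11 in KO and 10 in control cells, and 5 in induced and 11 in non-induced cells. At Dppa2 they numbered 13 of 15 in KO and 15 in control cells, and 9 in induced and 11 in non-induced cells. At Hbb-b1 they numbered 17 of 20 in KO and 19 in control cells, and 15 in induced and 17 in non-induced cells. When each dim channel was raised to the lowest well-measured signal of its array, Zfp42 differed by -0.56 for KO minus control and -0.59 for induced minus non-induced, and was still called in both. Dppa2 then differed by -0.70 in KO cells, and Hbb-b1 by -0.61 in KO and -0.29 in induced cells, the last no longer called.

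**Figure D4:**
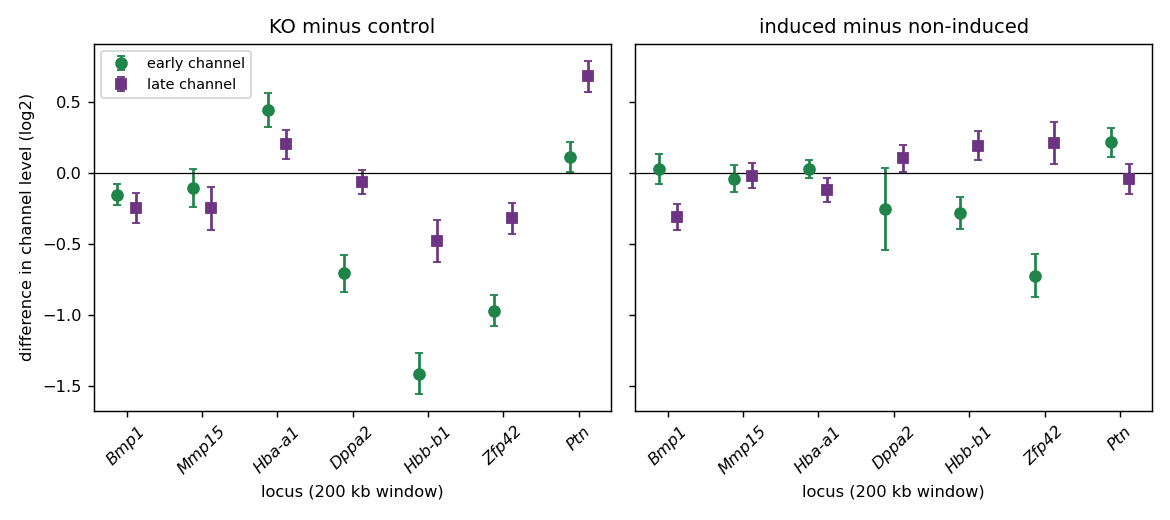
Difference in the level of the early and the late channel (y axis, log2, each relative to its autosomal median) at the 7 loci (x axis), for KO minus control (left) and induced minus non-induced (right), with bars for the SE over probes. At Hbb-b1 the early channel lies at -1.41 for KO minus control, whereas at Ptn the late channel lies at 0.68.

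Bins of 200 kb out to 1 Mb on either side showed how far each state reached. Around Dppa2, Hbb-b1 and Zfp42 all 11 bins were below 0 on all 4 arrays, as means over the probes of a bin. The running median over 9 probes stayed below 0 within 1 Mb of all 3, except at Hbb-b1 in control cells, where it crossed 0 at -70 kb (-53 kb over 5 probes and -1257 kb over 13, negative to the left). Around Dppa2, 6 of the 10 flanking bins were later in KO cells and 2 in induced cells, and around Zfp42 6 of 10 were later in each comparison. Of all windows, 22.2% were later in KO and 11.9% in induced cells. Bins to the left held few probes, 5 to 7 at Dppa2 and 5 to 11 at Zfp42, and bins to the right of Zfp42 also held 5 to 11. Dppa2 itself was not called on induction, but the bin centred 200 kb to its right differed by -0.96 ± 0.16 (-1.94 in induced and -0.97 in non-induced cells). Around Hbb-b1, 4 of 10 flanking bins were later in KO cells, fewer than around Dppa2 or Zfp42. In induced cells 2 of 10 were later there, as many as around Dppa2. The bins 600 and 800 kb to its right ran the other way, by 0.42 ± 0.11 and 0.41 ± 0.08, under the threshold.

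The early loci had an edge of their domain within 1 Mb. To the right of Bmp1 the bin at 200 kb was 0.82 in both KO and control cells. The bin at 400 kb was -0.80 in KO and 0.24 in control cells (difference -1.04 ± 0.14), and the bin at 600 kb was -1.08 in KO and 0.41 in control cells (-1.49 ± 0.19, 8 probes). A running median over 9 probes crossed 0 at 315 kb from the locus in KO and at 764 kb in control cells, and at 484 kb in both induced and non-induced cells. The edge thus lay nearer to Bmp1 in KO cells while the window of the locus differed by 0.05. Non-induced cells were also later than control cells in the bins at 600 and 800 kb, by -0.66 ± 0.14 and -0.56 ± 0.17.

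To the right of Mmp15 the order was opposite. The bin at 200 kb was 0.78 in KO and 0.17 in control cells (0.61 ± 0.11, called earlier), and the running median crossed 0 at 546 kb in KO and 236 kb in control cells. The crossing lay at 563 kb in induced and 546 kb in non-induced cells, so that control cells differed from the other 3 arrays. With 5 in place of 9 probes the KO crossing lay at 417 kb.

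Ptn lay at the edge of a domain on every array, with late bins further to its left. The bin 200 kb to its left was -1.54 in KO and -0.54 in control cells (-1.01 ± 0.06), and 0.18 in induced and 0.21 in non-induced cells. In KO cells the running median was already below 0 at the locus and crossed 0 at 33 kb to its right. The crossing on the left stood at -139 kb in control, -231 kb in induced and -239 kb in non-induced cells (negative to the left). Beyond that crossing KO cells were not early throughout. The bin at 200 kb to the right was 0.16 in KO and 0.47 in control cells (-0.30 ± 0.07, not called). The bin at 400 kb was -0.47 in KO and -0.01 in control cells (-0.46 ± 0.08, called later). Further right the KO array was the earlier of the pair, by 0.64 ± 0.09 in the bin at 800 kb (0.89 in KO and 0.26 in control cells). Within 1 Mb of Ptn, KO cells were therefore called later in 4 of 10 flanking bins and earlier in 2, against 22.2% and 8.02% of all windows. No bin there was called for induced against non-induced cells.

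**Figure D5:**
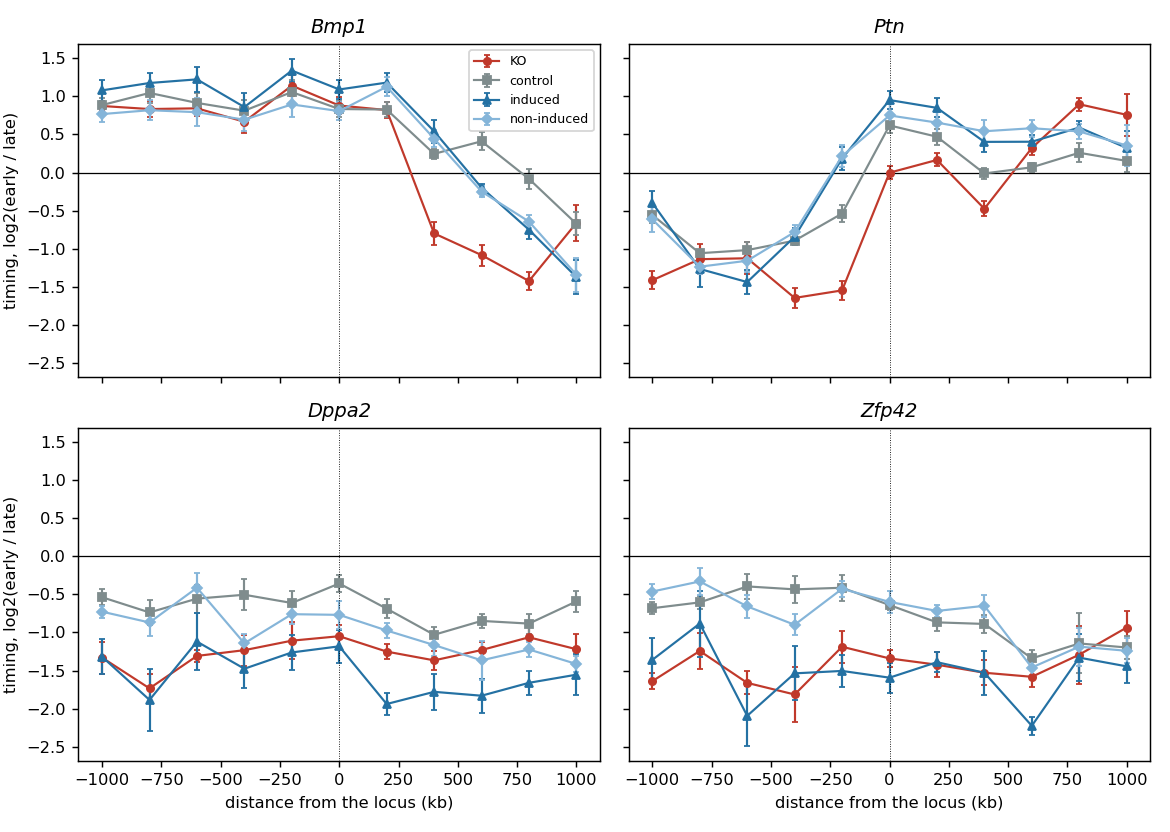
Timing (y axis, log2 of early over late) in bins of 200 kb against distance from the locus (x axis, kb) for Bmp1, Ptn, Dppa2 and Zfp42 on the KO, control, induced and non-induced arrays, with bars for the SE over probes. Right of Bmp1 the KO line is at -0.80 and the control line at 0.24 in the bin at 400 kb, and around Dppa2 and Zfp42 every bin lies below 0.

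The windows most like the study's 2 controls were found by Euclidean distance over the 4 timing values among 11932 windows away from the loci. Nearest to Bmp1 were chr1:181600001-181800000 (distance 0.033), chr4:41000001-41200000 (0.048) and chr2:121200001-121400000 (0.049), against a median distance of 2.70. Nearest to Dppa2 were chrX:118400001-118600000 (0.11), chr8:16800001-17000000 (0.11) and chr6:20800001-21000000 (0.11), against a median of 1.34. The first of these had timing of -1.10 in KO and -0.29 in control cells, and -1.13 in induced and -0.74 in non-induced cells, from 5 probes.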

How the data were processed

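Early and late DNA from 4 groups of fibroblasts was hybridised to 1 array each (2 slides, dyes not swapped). Per the file headers, Feature Extraction 11.5.1.1 made the processed intensity of each channel by background subtraction, detrending and 1 linear dye factor, and version 9.1 stands in the submitters' processing notes. The deposited log10 ratio has late DNA on top, per the file headers, and matched the series' value table in all 180880 spots of each array. Other columns per the file headers are flags of spot quality and probe positions on mm9.

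Timing was log2 of early over late processed intensity. The 6575 control spots and 154 to 447 outlier-flagged spots per array were dropped. Repeat spots were averaged by probe, and the autosomal median of an array was set to 0, with no loess or quantile step. Saturated flags, 11 to 28 per array, were kept. Probes within 100 kb of each position were averaged, and windows of 200 kb needed 5 probes. All 7 loci are described, as are the 3 windows most like Bmp1 and Dppa2. Alternatives covered background correction, loess, scaling, quantile normalization, centring, window size, dim and flagged spots, and thresholds. Domain edges, levels against the own chromosome and the raised dim channels were added after seeing the data. The calling rule was checked on simulated data with independent probe noise of 1 size. That noise had no offset or difference in spread between arrays, so the check does not cover calls that such differences produce. The members and lists were chosen with earlier results of these data known. The number of arrays, 1 per group, limits the precision. Python 3.11.15, numpy 2.4.6, pandas 2.3.3, matplotlib 3.10.9, R 4.3.3 and limma 3.58.1 were used.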

Additional observations from a re-analysis of the deposited data

Results flagged for a closer look

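Ptn was called later in only 1 of the 2 comparisons, and its mean difference had opposite signs in them. It differed by -0.62 ± 0.11 between KO and control cells and by 0.20 ± 0.12 between induced and non-induced cells (SE over 17 probes), a gap of -0.82. The second value was not called, with 9 of 17 probes above 0, and turned to -0.02 once the arrays were given a common spread. With 1 array per group this difference between the comparisons was not tested.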

How the results depend on the processing

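No paired analysis was possible because each group has 1 array. Of 28 timing values, 27 kept their sign under all 12 alternatives run on them, and Ptn in KO cells ran from -0.15 to 0.39. The 12 include scaling to the same spread, which only multiplies a centred timing value and could not turn its sign. The 4 differences called later in KO cells, and the 2 in induced cells, kept their sign under all 14 alternatives run on them. The 14 include 2 changes of threshold, which leave a difference as it is and could not turn its sign. The deposited log ratios and the kept flagged spots also left these differences nearly unchanged. Normexp gave Bmp1 minus Dppa2 as 1.31 in KO, 0.88 in control, 1.43 in induced and 1.07 in non-induced cells. Scaling to the same spread gave 1.51 in KO and 1.53 in induced cells. Loci later in KO cells numbered 4, against 1 with normexp, 2 with quantile normalization, 1 with a threshold of 0.5 of the spread, and 3 with loess, scaling, window-median centring or 50 kb either side. Loci later in induced cells numbered 2, against 0 with normexp, scaling, quantile normalization, centring on the window median (1 earlier, Bmp1) or a threshold of 0.5 of the spread, and 1 with loess, 50 kb either side, well-measured probes only or raised dim channels. The cause was not tested.

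Counts of windows moved as well. Later windows in KO cells numbered 2665, against 1638 with scaling, 1271 with window-median centring, 1630 with normexp, 1142 with quantile normalization and 892 with a threshold of 0.5 of the spread. Earlier ones numbered 962, against 2148 with window-median centring and 151 with that threshold. Later windows in induced cells numbered 1434, against 224 with scaling, 284 with window-median centring, 742 with raised dim channels, 906 with loess, 243 with normexp, 738 with well-measured probes, 145 with quantile normalization, 2231 by size alone and 110 with that threshold. Earlier ones numbered 56, against 8, 1076, 27, 176, 32, 12, 19, 62 and 0 in the same order. Between non-induced and control cells, 1302 later windows became 806 with window-median centring and 198 with that threshold, and 980 earlier ones became 94 with that threshold. The dim early signal at late loci, the fixed dyes and the single arrays limit the sizes given here.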
